A study of Rattus norvegicus with 30 samples.

Results

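The genes described here make, sense, move, export, esterify and take up cholesterol. They are 31 listed genes, found by matching each listed symbol, current or older, to the probe sets that the platform annotation ties to that gene alone. Of the 31, 29 had such a probe set, 49 probe sets in all, and 28 had at least 1 probe set bright enough to test. Hmgcs1 and Npc1 were not analysed here, and both probe sets of Soat1 lay below the filter on dim probe sets. The table as a whole gave 10604 tested genes.

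RNA came from frozen hepatocytes of male Sprague Dawley rats, thawed, plated on collagen under a Matrigel layer and dosed on the third day of culture. Diisononyl phthalate (DINP), a plasticiser, was given at 25 mM or 100 mM for 24 h or 48 h, and the vehicle cultures received 1% DMSO alone for the same times. Each of the 6 groups had 5 arrays, 30 in all, from wells that the labels call independent cultures. Which animals the cells came from is not stated, and the p-values therefore reflect well-to-well spread, which may be technical. The dose unit is kept as the labels give it, and whether mM is intended could not be checked. All 6 listed hepatocyte markers were above the filter, with a summed signal of 477066 to 624027 units per array. Of the listed markers of other liver cells, 3 of 6 for macrophages, 4 of 6 for stellate cells, 3 of 6 for endothelial cells and 2 of 5 for cholangiocytes were above it. In such bulk RNA, fewer cells of a type and less RNA per cell cannot be told apart.

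Liver cells build cholesterol from acetyl-CoA by way of mevalonate, squalene and lanosterol. When sterol in the endoplasmic reticulum is low, the escort protein SCAP carries the transcription factor SREBP-2 to the Golgi, where it is cut and released to switch on genes of synthesis and uptake. INSIG proteins hold SCAP back when sterol is plentiful. Surplus cholesterol leaves the hepatocyte through ABCG5 and ABCG8 into bile, through ABCA1 onto lipid-poor apolipoprotein A-I, or as bile acids. Phthalates of this kind are known in rodent liver as activators of the fatty acid receptor PPARα.

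The sequences at the RefSeq starts are shown for members that had a window and differed from the vehicle at both doses and both times. Whether a window holds the promoter used in these cells was not checked. Each window runs from 250 bases before to 50 bases after the RefSeq start (GRCr8), written 5′ to 3′ on the gene's strand, and the capitals mark CCAAT or its reverse complement ATTGG, the box bound by NF-Y. The windows are chr6:15717686-15717985 on the plus strand for Abcg5, chr13:35040049-35040348 on the minus strand for Insig2, chr13:84722705-84723004 on the minus strand for Hsd17b7 and chr5:72596424-72596723 on the minus strand for Abca1.
Abcg5: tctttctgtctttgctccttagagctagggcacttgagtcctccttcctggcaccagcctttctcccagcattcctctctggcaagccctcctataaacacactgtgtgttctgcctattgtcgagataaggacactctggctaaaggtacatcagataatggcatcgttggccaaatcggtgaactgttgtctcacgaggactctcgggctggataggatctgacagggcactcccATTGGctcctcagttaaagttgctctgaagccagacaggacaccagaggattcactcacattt
Insig2: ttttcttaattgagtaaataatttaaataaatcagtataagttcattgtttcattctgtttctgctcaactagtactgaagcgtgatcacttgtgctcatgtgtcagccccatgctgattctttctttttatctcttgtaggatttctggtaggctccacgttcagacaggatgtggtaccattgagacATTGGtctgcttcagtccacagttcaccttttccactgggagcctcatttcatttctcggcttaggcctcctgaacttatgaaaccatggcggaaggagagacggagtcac
Hsd17b7: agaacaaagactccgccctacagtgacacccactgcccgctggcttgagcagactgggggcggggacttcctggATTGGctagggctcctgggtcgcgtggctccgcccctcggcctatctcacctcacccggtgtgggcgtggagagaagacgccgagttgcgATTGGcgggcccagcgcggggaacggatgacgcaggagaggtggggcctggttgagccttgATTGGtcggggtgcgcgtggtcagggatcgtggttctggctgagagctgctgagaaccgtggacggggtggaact
Abca1: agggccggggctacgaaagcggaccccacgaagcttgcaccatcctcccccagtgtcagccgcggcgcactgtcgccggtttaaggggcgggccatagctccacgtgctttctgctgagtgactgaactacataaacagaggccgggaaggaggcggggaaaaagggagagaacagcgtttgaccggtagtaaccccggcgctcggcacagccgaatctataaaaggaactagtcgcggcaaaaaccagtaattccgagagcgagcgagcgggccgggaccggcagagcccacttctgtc

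Hsd17b7 holds 3 such boxes, 25 to 176 bases before its start. Abcg5 holds 1 at 13 bases and Insig2 holds 1 at 61 bases, while Abca1 has none in this window. Of the 31 listed genes, 26 had a window in the RefSeq table. CCAAT on either strand lay in 20 of those 26, against 37.49% of the 33469 promoters of the table. The sterol regulatory element, searched as TCACNCCAC on both strands, lay in 0 of 26 windows and in 1.12% of all promoters. Paired AGGTCA half-sites in the same direction with 4 bases between them, the layout known for the liver X receptor, lay in 0 of 26 windows and in 0.01% of all. With 1 base between them, the layout known for PPAR, they lay in 0 of 26 and in 0.05%. A match describes letters only, and its absence says that these letters are not in this window. Abcg5 and Abcg8 are transcribed away from each other from starts 206 bases apart, so 295 bases of their windows are the same sequence. The CCAAT box of each is the same site, counted for both genes above.

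Values below are log2(signal + 16) for levels, given per array or as mean ± SD over the 5 arrays of a group, and log2 differences ± limma's standard error. Adjusted p-values are limma's, with Benjamini-Hochberg adjustment over all tested probe sets of a comparison and a threshold of 0.05, and a gene is read from its brightest tested probe set. Of the 28 genes, 3 were higher than in the vehicle and 5 were lower at 25 mM and 24 h, beside 7.87% and 7.84% of all tested genes. At 100 mM and 24 h, 3 were higher and 4 lower, beside 7.54% and 7.02% of all genes. At 25 mM and 48 h, 3 were higher and 9 lower, beside 9.78% and 12.1%. At 100 mM and 48 h, 4 were higher and 3 lower, beside 8.69% and 9.2%. The share of lower genes at 25 mM and 48 h was the farthest from that of all genes. The median log2 difference of the 28 genes was -0.04 at 25 mM and 0.08 at 100 mM after 24 h, where the medians of all genes were -0.02 and -0.03. After 48 h it was -0.08 at 25 mM and 0.00 at 100 mM, where the medians of all genes were -0.03 and -0.06.

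Scaling moved the split between higher and lower genes. With each array centred on its median, the 24 h comparisons had 4 higher and 3 lower genes for 25 mM, and 4 higher and 2 lower genes for 100 mM, where 11.5% and 11.2% of all genes were higher and 4.85% and 3.67% lower. At 48 h the same centring gave 3 higher and 5 lower at 25 mM and 6 higher and 3 lower at 100 mM, where 11.7% and 12.96% of all genes were higher and 8.21% and 4.79% lower. All genes thus held a larger share of higher calls with centring too. With quantile normalisation the comparison of 100 mM at 48 h had 3 higher and 5 lower genes, beside 8.62% and 7.71% of all genes. No member changed the sign of a call under either scaling.

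Of the 28 genes, 5 passed the threshold in all 4 comparisons with the vehicle. Insig2, Abcg5 and Hsd17b7 were higher in each, and Sqle and Abca1 were lower in each, the calls of Hsd17b7 at 100 mM and 24 h and at 25 mM and 48 h being lost under some other settings. Idi1 passed in 3, Acat2 and Cyp51 in 2, and Mvd, Lss, Tm7sf2, Ebp, Sc5d, Stard4 and Lcat in 1. The other 13 passed in none. How many of all tested genes passed in all 4 comparisons, or in fewer, was not counted, so these counts have no background beside them. The doses share their vehicle arrays at each time, so the comparisons at one time are not independent of each other.

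**Figure D1:**
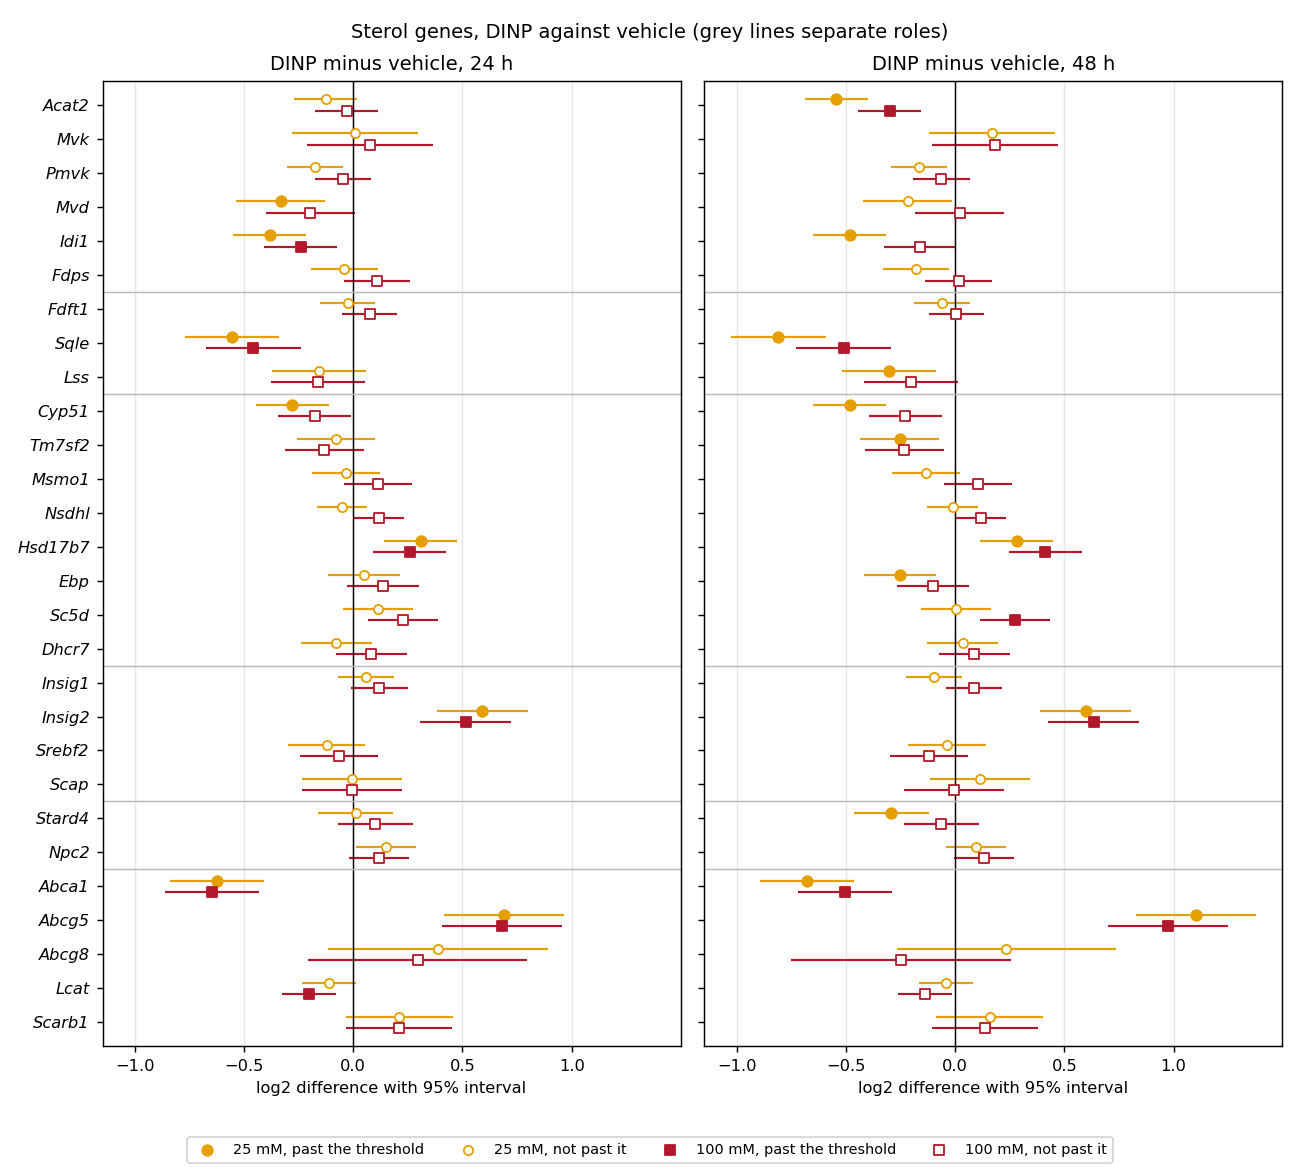
Log2 differences of the 28 tested sterol genes from the vehicle at 24 h and 48 h, with limma's 95% intervals, 25 mM as circles and 100 mM as squares. Filled symbols passed the threshold of 0.05 after adjustment over all tested probe sets: Insig2, Abcg5 and Hsd17b7 lie to the right and Sqle and Abca1 to the left in every comparison.

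Among the genes of sensing and control, Insig2 alone passed the threshold. It encodes an anchor that keeps SCAP and SREBP-2 in the endoplasmic reticulum. Insig2 at 25 mM and 24 h read 15.35, 15.12, 15.14, 15.34 and 15.28, against 14.48, 14.43, 14.54, 14.68 and 15.15 in the vehicle. Insig2 at 100 mM and 24 h read 14.99, 15.16, 15.22, 15.08 and 15.41, against the same vehicle arrays. A single vehicle array, replicate 5, reached into the range of the dosed arrays. The differences were 0.59 ± 0.10 at 25 mM (1.51-fold, adjusted p = 7.84e-05) and 0.51 ± 0.10 at 100 mM (1.43-fold, adjusted p = 0.000567). Insig2 at 25 mM and 48 h read 14.88, 15.0002, 15.19, 15.33 and 15.11, against 14.48, 14.28, 14.37, 14.76 and 14.64 in the vehicle. Insig2 at 100 mM and 48 h read 15.04, 15.14, 15.11, 15.18 and 15.23, against those vehicle arrays. At 48 h every dosed array lay above every vehicle array at both doses, with differences of 0.60 ± 0.10 at 25 mM (adjusted p = 5.03e-05) and 0.63 ± 0.10 at 100 mM (adjusted p = 2.59e-05). A second Insig2 probe set was less variable and was higher by 0.52 ± 0.05 and 0.43 ± 0.05 at 24 h and by 0.59 ± 0.05 and 0.55 ± 0.05 at 48 h, at 25 mM and 100 mM in each pair. Its dosed and vehicle arrays did not overlap in any of the 4 comparisons.

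The other sensors did not pass the threshold. Insig1, a relative of Insig2 that is itself switched on by SREBP, differed from the vehicle by 0.06 ± 0.06 and 0.12 ± 0.06 at 24 h and by -0.10 ± 0.06 and 0.08 ± 0.06 at 48 h, at 25 mM and 100 mM in that order. Srebf2, which encodes SREBP-2, differed by -0.12 ± 0.09 to -0.04 ± 0.09 over the 4 comparisons. Scap differed by -0.01 ± 0.11 to 0.11 ± 0.11. For Srebf2 at 100 mM and 48 h the 95% interval ran from -0.30 to 0.06, which bounds what these arrays could show.

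The sterol exporters moved apart from each other. Abcg5, a half-transporter that pairs with ABCG8 to send sterols into bile, had the largest difference of the 28 genes in every comparison with the vehicle. Abcg5 at 25 mM and 24 h read 9.99, 9.58, 9.73, 9.97 and 9.87, against 9.15, 9.31, 9.04, 8.95 and 9.24 in the vehicle. Abcg5 at 100 mM and 24 h read 9.94, 9.81, 9.64, 9.78 and 9.92, against the same vehicle arrays. No dosed array overlapped the vehicle, and the differences were 0.69 ± 0.13 at 25 mM (1.61-fold, adjusted p = 0.000369) and 0.68 ± 0.13 at 100 mM (1.6-fold, adjusted p = 0.000507). Abcg5 at 25 mM and 48 h read 10.03, 9.55, 10.07, 9.99 and 10.37, against 8.91, 8.99, 9.08, 8.48 and 9.05 in the vehicle. Abcg5 at 100 mM and 48 h read 9.63, 9.81, 9.97, 10.18 and 9.79, against those vehicle arrays. The groups again did not overlap, with differences of 1.10 ± 0.13 at 25 mM (2.15-fold, adjusted p = 1.67e-07) and 0.97 ± 0.13 at 100 mM (1.96-fold, adjusted p = 2.06e-06).

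Abcg8, the partner half-transporter whose start lies beside that of Abcg5, passed in none of the 4 comparisons. It was dim and variable, averaging 8.69 ± 0.27 at 25 mM and 24 h against 8.30 ± 0.33 in the vehicle. At 48 h it averaged 8.53 ± 0.43 at 25 mM and 8.04 ± 0.56 at 100 mM, against 8.29 ± 0.42 in the vehicle (SD, n = 5). Its differences were 0.39 ± 0.25 and 0.29 ± 0.25 at 24 h and 0.23 ± 0.25 and -0.25 ± 0.25 at 48 h, and all 4 intervals included 0. Whether Abcg5 and Abcg8 differed in their response was not tested.

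Abca1, which moves cholesterol and phospholipid onto apolipoprotein A-I, was lower at both doses and both times. Abca1 at 25 mM and 24 h read 11.06, 11.40, 11.29, 11.41 and 11.12, against 11.75, 11.82, 11.95, 11.92 and 11.95 in the vehicle. Abca1 at 100 mM and 24 h read 11.04, 11.46, 11.20, 11.26 and 11.20, against those vehicle arrays. The dosed arrays all lay below the vehicle, and the gene fell by 0.62 ± 0.11 at 25 mM (1.54-fold lower, adjusted p = 5.1e-05) and by 0.65 ± 0.11 at 100 mM (1.57-fold lower, adjusted p = 3.43e-05). Abca1 at 25 mM and 48 h read 10.81, 10.52, 10.92, 10.70 and 11.05, against 11.43, 11.37, 11.57, 11.58 and 11.43 in the vehicle. Abca1 at 100 mM and 48 h read 11.07, 11.08, 10.81, 10.62 and 11.30, against the same vehicle arrays. These groups did not overlap either, and the gene fell by 0.68 ± 0.11 at 25 mM (adjusted p = 1.06e-05) and by 0.50 ± 0.11 at 100 mM (adjusted p = 0.000812).

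Abca1 has 4 tested probe sets, and all 4 had negative differences in all 4 comparisons. The second brightest passed in each, by -0.31 ± 0.10 to -0.55 ± 0.10. The dimmest also passed in each, by -0.60 ± 0.19 to -0.93 ± 0.19. The remaining probe set passed at 100 mM and 48 h (-0.54 ± 0.15, adjusted p = 0.0142) and had adjusted p-values of 0.0553 to 0.315 in the other comparisons.

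**Figure D2:**
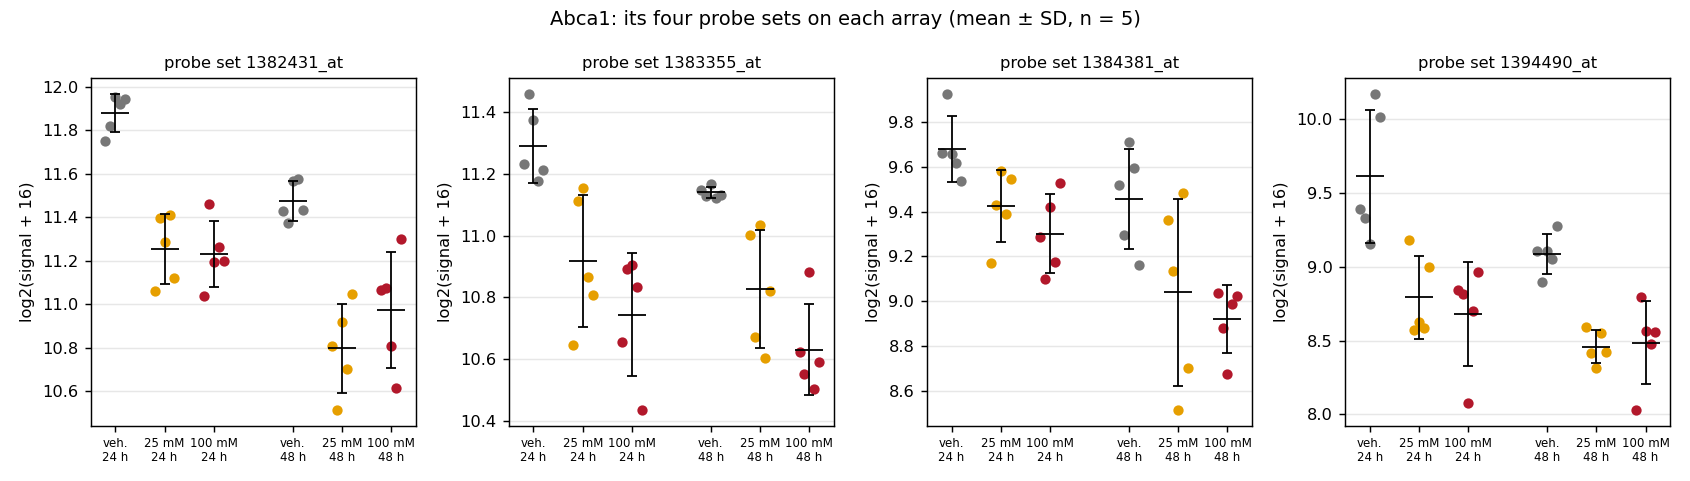
Levels of Abca1, as log2(signal + 16), on each array for its 4 tested probe sets, in vehicle, 25 mM and 100 mM cultures at 24 h and 48 h, with mean ± SD of 5 arrays. The brightest probe set, on the left, shows every dosed array below every vehicle array of its time, and the vehicle arrays themselves lower at 48 h than at 24 h.

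Of the other genes of export, esterification and uptake, Lcat passed once. It encodes the plasma enzyme that esterifies cholesterol on high-density lipoprotein, and it averaged 12.48 ± 0.09 at 100 mM and 24 h against 12.68 ± 0.09 in the vehicle (SD, n = 5). Its difference was -0.20 ± 0.06 (adjusted p = 0.0229) at 100 mM and 24 h, and this call was lost with median centring and without any 1 of vehicle replicate 5, the highest array of its group, or 100 mM replicates 2, 3 and 5. In the other comparisons Lcat differed by -0.14 ± 0.06 to -0.04 ± 0.06. Scarb1, the receptor that takes cholesteryl ester from high-density lipoprotein, differed by 0.14 ± 0.12 to 0.21 ± 0.12 and passed in none. Soat1, which esterifies cholesterol inside cells, had group means of 7.40 to 8.17 on its brighter probe set and was not tested.

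Of the genes that move cholesterol inside the cell, Stard4, a soluble carrier between membranes, averaged 10.50 ± 0.11 at 25 mM and 48 h against 10.80 ± 0.11 in the vehicle (SD, n = 5). Its difference there was -0.29 ± 0.08 (adjusted p = 0.0127), and the array ranges did not overlap. Its other tested probe sets gave 0.23 ± 0.18 and -0.06 ± 0.14 in the same comparison, so its probe sets disagree, and the median over them gave -0.06 (adjusted p = 0.836). Npc2, which hands cholesterol out of the lysosome, differed by 0.09 ± 0.07 to 0.15 ± 0.07 and passed in none.

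**Figure D3:**
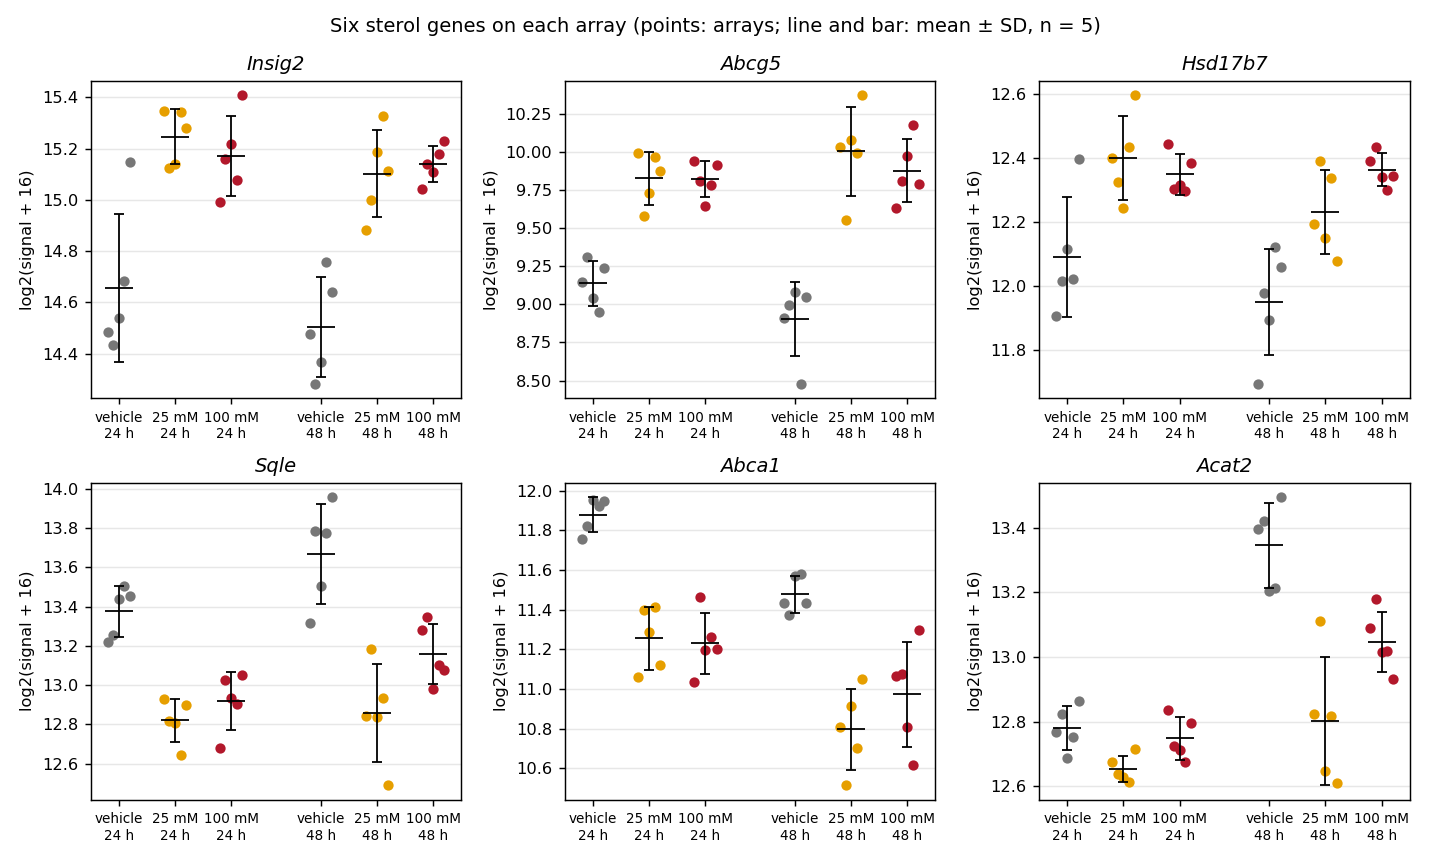
Levels of Insig2, Abcg5, Hsd17b7, Sqle, Abca1 and Acat2, as log2(signal + 16), on each array in vehicle, 25 mM and 100 mM cultures at 24 h and 48 h, with mean ± SD of 5 arrays. Abcg5 and Abca1 separate completely from the vehicle of their time, on opposite sides, and Acat2 separates at 48 h only.

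Of the 17 tested enzymes of synthesis, 4 had a positive and 13 a negative difference from the vehicle at 25 mM at each time. At 100 mM 9 were positive and 8 negative at each time. Of all genes, 45.3% and 44.7% were positive at 25 mM and 44.3% and 39.5% at 100 mM, 24 h before 48 h. Over 20 other settings 3 to 8 enzymes were positive at 25 mM and 24 h, with 8 under median centring, and 2 to 5 at 25 mM and 48 h. At 100 mM 8 to 11 were positive at 24 h and 6 to 10 at 48 h. At 25 mM and 24 h 1 was higher and 4 were lower, beside 7.87% and 7.84% of all genes. At 100 mM and 24 h 1 was higher and 2 were lower, beside 7.54% and 7.02%. At 25 mM and 48 h 1 was higher and 7 were lower, beside 9.78% and 12.1%. At 100 mM and 48 h 2 were higher and 2 lower, beside 8.69% and 9.2%. At an unadjusted p under 0.05 there were 6 of 17 at either dose after 24 h, and 11 of 17 at 25 mM and 7 of 17 at 100 mM after 48 h, where 28.4%, 27.5%, 33.1% and 31.1% of all genes passed. Their median log2 differences were -0.08 and 0.07 at 24 h and -0.18 and 0.01 at 48 h, at 25 mM and 100 mM in each pair, beside -0.02, -0.03, -0.03 and -0.06 for all genes. These medians moved with the processing. Over 20 other settings they ran from -0.11 to -0.01 at 25 mM and -0.03 to 0.15 at 100 mM after 24 h, and from -0.23 to -0.13 at 25 mM and -0.09 to 0.09 at 100 mM after 48 h, so the sign at 100 mM is not settled at either time.

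Sqle, the squalene epoxidase that oxidises squalene at a slow step of the pathway, fell the farthest of the enzymes. Sqle at 25 mM and 24 h read 12.93, 12.82, 12.80, 12.64 and 12.90, against 13.22, 13.26, 13.44, 13.51 and 13.46 in the vehicle. Sqle at 100 mM and 24 h read 12.68, 13.03, 12.93, 12.90 and 13.05, against the same vehicle arrays. The groups did not overlap, and the gene fell by 0.56 ± 0.11 at 25 mM (1.47-fold lower, adjusted p = 0.000299) and by 0.46 ± 0.11 at 100 mM (1.37-fold lower, adjusted p = 0.00306). Sqle at 25 mM and 48 h read 12.84, 13.18, 12.84, 12.93 and 12.49, against 13.31, 13.78, 13.50, 13.78 and 13.96 in the vehicle. Sqle at 100 mM and 48 h read 13.28, 13.35, 12.98, 13.10 and 13.08, against those vehicle arrays. The 25 mM arrays all lay below the vehicle (-0.81 ± 0.11, 1.75-fold lower, adjusted p = 6.25e-07), whereas 1 array at 100 mM, replicate 2, reached the lowest vehicle array (-0.51 ± 0.11, adjusted p = 0.000795).

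Its neighbours in the pathway differed less. Fdft1, which makes squalene, had differences of -0.06 ± 0.06 to 0.07 ± 0.06 and passed in none. Lss, which closes the rings to give lanosterol, averaged 11.23 ± 0.24 at 25 mM and 48 h against 11.53 ± 0.21 in the vehicle, a difference of -0.30 ± 0.11 (adjusted p = 0.0442) with overlapping arrays. The Lss call was lost under 13 of 20 other settings.

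In the mevalonate arm, Acat2, the cytosolic thiolase that joins acetyl groups at the entry to the pathway, was lower at 48 h only. Acat2 at 25 mM and 48 h read 12.82, 13.11, 12.65, 12.82 and 12.61, against 13.40, 13.42, 13.20, 13.21 and 13.49 in the vehicle. Acat2 at 100 mM and 48 h read 13.09, 13.18, 13.01, 13.02 and 12.93, against the same vehicle arrays. All dosed arrays lay below all vehicle arrays, and the gene fell by 0.54 ± 0.07 at 25 mM (1.46-fold lower, adjusted p = 5.53e-07) and by 0.30 ± 0.07 at 100 mM (1.23-fold lower, adjusted p = 0.0031). At 24 h the arrays overlapped, reading 12.61 to 12.71 at 25 mM against 12.69 to 12.86 in the vehicle, a difference of -0.13 ± 0.07 (adjusted p = 0.284). At 100 mM and 24 h the difference was -0.03 ± 0.07 (adjusted p = 0.85). The change of the 25 mM difference between the times was -0.42 ± 0.10 with an adjusted p of 0.0685, which did not pass.

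Idi1, which interconverts the isoprene building blocks, was lower in 3 comparisons. It averaged 13.43 ± 0.16 at 25 mM and 24 h against 13.81 ± 0.10 in the vehicle, and 13.35 ± 0.19 at 25 mM and 48 h against 13.83 ± 0.13 in the vehicle (SD, n = 5). Every 25 mM array lay below every vehicle array at both times, with differences of -0.38 ± 0.08 (adjusted p = 0.000991) at 24 h and -0.48 ± 0.08 (adjusted p = 3.7e-05) at 48 h. At 100 mM it differed by -0.24 ± 0.08 at 24 h (adjusted p = 0.0468), a call lost under 12 of 20 other settings, and by -0.16 ± 0.08 at 48 h (adjusted p = 0.202). Its second probe set also passed at 25 mM, by -0.38 ± 0.12 at 24 h and -0.40 ± 0.12 at 48 h.

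Mvd, a decarboxylase of the same arm, averaged 10.50 ± 0.15 at 25 mM and 24 h against 10.84 ± 0.09 in the vehicle, a difference of -0.33 ± 0.10 (adjusted p = 0.0227) without overlap of the arrays. This call was lost under 6 of 20 other settings, both rescalings among them. Its other 3 differences were -0.22 ± 0.10, -0.20 ± 0.10 and 0.02 ± 0.10. Pmvk, a kinase of mevalonate phosphate, had -0.17 ± 0.06 at 25 mM at both times and -0.05 ± 0.06 and -0.06 ± 0.06 at 100 mM, and passed in none. Fdps, which makes farnesyl diphosphate, differed by -0.18 ± 0.08 to 0.11 ± 0.08. Mvk, the mevalonate kinase, differed by 0.01 ± 0.14 to 0.18 ± 0.14 on its brightest probe set. Its second probe set gave -0.30 ± 0.17 to -0.49 ± 0.17 and passed at 100 mM and 24 h (adjusted p = 0.0464), so no direction can be given for Mvk.

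Between lanosterol and cholesterol the enzymes split. Cyp51, the lanosterol demethylase, was lower at 25 mM, averaging 12.87 ± 0.04 at 24 h against 13.15 ± 0.11 in the vehicle and 12.92 ± 0.14 at 48 h against 13.40 ± 0.19 in the vehicle (SD, n = 5). The arrays did not overlap at either time, with differences of -0.28 ± 0.08 (adjusted p = 0.0189) and -0.48 ± 0.08 (adjusted p = 4.22e-05). A second Cyp51 probe set passed at 25 mM and 48 h (-0.40 ± 0.08, adjusted p = 0.000537) and gave -0.15 ± 0.08 at 25 mM and 24 h without passing. At 100 mM Cyp51 differed by -0.18 ± 0.08 (adjusted p = 0.172) at 24 h and by -0.23 ± 0.08 (adjusted p = 0.0575) at 48 h. Tm7sf2, a sterol reductase, and Ebp, a sterol isomerase, passed at 25 mM and 48 h alone, each by -0.25 with overlapping arrays (± 0.09, adjusted p = 0.0417 for Tm7sf2 and ± 0.08, adjusted p = 0.0263 for Ebp). The Tm7sf2 call was lost under 10 of 20 other settings and the Ebp call under 6 of 20, both with median centring.

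Hsd17b7, the ketosterol reductase of the demethylation steps, was the only enzyme called higher at both doses and times, on its brightest probe set. At 25 mM and 24 h it averaged 12.40 ± 0.13 and at 100 mM and 24 h 12.35 ± 0.06, against 12.09 ± 0.19 in the vehicle. At 25 mM and 48 h it averaged 12.23 ± 0.13 and at 100 mM and 48 h 12.36 ± 0.05, against 11.95 ± 0.17 in the vehicle (SD, n = 5). The differences were 0.31 ± 0.08 (adjusted p = 0.00861) and 0.26 ± 0.08 (adjusted p = 0.034) at 24 h and 0.28 ± 0.08 (adjusted p = 0.0138) and 0.41 ± 0.08 (adjusted p = 0.000431) at 48 h. Arrays overlapped in the first 3 of these comparisons, and at 100 mM and 48 h they did not. The call at 100 mM and 24 h was lost under 7 of 20 other settings, 6 of them the omission of 1 array, and the call at 25 mM and 48 h under 3 of 20, among them the median over its probe sets (0.12, adjusted p = 0.161). Its second probe set was higher at 25 mM and 24 h (0.29 ± 0.08, adjusted p = 0.0143) and gave 0.23 ± 0.08, -0.04 ± 0.08 and 0.09 ± 0.08 in the other comparisons, so the rise at 48 h rests on the brighter probe set.

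Sc5d, a desaturase near the end of the pathway, passed at 100 mM and 48 h, where it averaged 13.91 ± 0.18 against 13.63 ± 0.12 in the vehicle (0.27 ± 0.08, adjusted p = 0.0154). Its other tested probe sets also passed there, by 0.24 ± 0.07 and 0.31 ± 0.08. At 100 mM and 24 h Sc5d differed by 0.23 ± 0.08 with an adjusted p of 0.0524, while another of its probe sets passed there (0.23 ± 0.07, adjusted p = 0.0153). The remaining Sc5d probe set was also higher at 25 mM and 48 h (0.25 ± 0.08, adjusted p = 0.0223), where the brightest gave 0.01 ± 0.08. Msmo1 and Nsdhl, which act in the same demethylation, differed by -0.13 ± 0.08 to 0.11 ± 0.08 and by -0.05 ± 0.06 to 0.12 ± 0.06 and passed in none, although a second Nsdhl probe set was higher at 100 mM and 48 h (0.27 ± 0.09, adjusted p = 0.0363). Dhcr7, the last reductase, differed by -0.08 ± 0.08 to 0.09 ± 0.08.

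The doses were then set against each other, 100 mM over 25 mM. limma called 0 of the 28 genes at either time, beside 0.00943% of all genes higher and 0% lower at 24 h and the same shares at 48 h. At an unadjusted p under 0.05 there was 1 of 28 at 24 h, Nsdhl, where 4.09% of all genes passed, and 11 of 28 at 48 h, where 7.67% of all genes did. At 48 h 9 of these 11 were enzymes of synthesis and the others were Insig1 and Stard4. All 17 enzymes had a positive difference at 48 h, with a median of 0.15, while 48.1% of all genes were positive with a median of -0.01. At 24 h 14 of 17 were positive, with a median of 0.10, while 49.7% of all genes were positive with a median of -0.0006. Centring each array on its median and quantile normalisation both left 17 of 17 positive at 48 h, and leaving out 1 array at a time left 15 to 17. The genes of the list share the same 10 arrays at 48 h, so their shared sign is a description of those arrays.

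The widest dose difference at 48 h was that of Abcg8, -0.48 with an interval of -0.98 to 0.02, and among the enzymes Idi1 and Sqle had the widest. For Idi1 it was 0.32 (95% interval 0.16 to 0.49, adjusted p = 0.257) and for Sqle 0.30 (0.08 to 0.52, adjusted p = 0.535). Sc5d, Cyp51, Acat2, Msmo1, Mvd, Fdps and Nsdhl had intervals that excluded 0, with differences of 0.13 to 0.27 and adjusted p-values of 0.392 to 0.602. For Mvk the interval was -0.27 to 0.30 and for Dhcr7 it was -0.11 to 0.22. Of the genes that were called at both doses, Insig2 had a dose difference of 0.04 (-0.17 to 0.25) and Abcg5 one of -0.13 (-0.40 to 0.15). For Abca1 it was 0.18 (-0.04 to 0.39). None of these passed, and the intervals leave room for modest ones of either sign for Insig2 and Abcg5.

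Averaged over the 17 enzymes, single arrays showed how far this depends on individual cultures. At 100 mM and 48 h the arrays averaged 13.24, 13.25, 13.04, 13.15 and 13.14, against 12.98, 13.13, 12.99, 12.98 and 12.90 at 25 mM. In the 48 h vehicle they averaged 13.24, 13.24, 13.06, 13.13 and 13.31. The ranges overlap between the doses at 48 h. Replicate 2 of 25 mM was the highest of its group for 12 of 17 enzymes and replicate 5 was the lowest for 10. Replicate 3 of 100 mM was the lowest of its group for 11 of 17, and replicate 3 of the vehicle was the lowest of its own for 11. At 24 h the average was 12.83 ± 0.04 at 25 mM and 12.93 ± 0.04 at 100 mM, against 12.94 ± 0.07 in the vehicle (SD, n = 5). The 24 h arrays ran from 12.781 to 12.862 at 25 mM and from 12.866 to 12.959 at 100 mM, narrowly without overlap. The 24 h vehicle arrays, at 12.861 to 13.006, overlapped both.

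**Figure D4:**
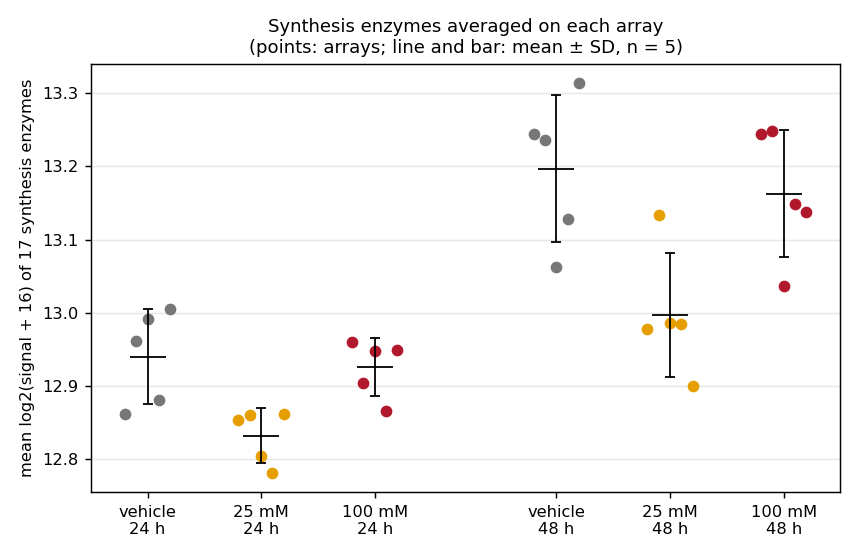
Mean level of the 17 tested synthesis enzymes, as log2(signal + 16), on each array, with mean ± SD of the 5 arrays of a group. The 25 mM arrays at 48 h lie at 12.90 to 12.99 apart from 1 array at 13.13, and all 48 h vehicle arrays lie above all 24 h vehicle arrays.

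Whether the response of a dose changed between 24 h and 48 h was tested as a difference of differences. limma called 0 of 28 genes for 25 mM, beside 0.245% of all genes higher and 0.113% lower, and 0 of 28 for 100 mM, beside 0.0849% and 0.0283%. At an unadjusted p under 0.05 there were 4 of 28 for 25 mM and 2 of 28 for 100 mM, where 9.38% and 6.89% of all genes passed. For 25 mM these were Acat2 (-0.42 ± 0.10, adjusted p = 0.0685), Ebp (-0.30 ± 0.11, adjusted p = 0.427), Stard4 (-0.30 ± 0.12, adjusted p = 0.449) and Abcg5 (0.41 ± 0.19, adjusted p = 0.575). For 100 mM they were Acat2 (-0.27 ± 0.10, adjusted p = 0.614) and Ebp (-0.24 ± 0.11, adjusted p = 0.784). The genes named here for an unadjusted p were picked with those values in view. The Acat2 difference for 25 mM passed without replicate 2 of 25 mM at 48 h and without replicate 3 of the 48 h vehicle, each of which gave 1 call of 28.

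The vehicle cultures themselves differed between the times. In the vehicle at 48 h against 24 h, 12 of the 28 genes were higher and 3 were lower, beside 9.49% and 7.92% of all genes. The higher ones were 11 of the 17 enzymes and Insig1, and the lower ones were Tm7sf2, Abca1 and Lcat. The median difference was 0.28 for the enzymes and 0.24 for the 28 genes, beside 0.03 for all genes. Age of the culture and length of exposure to DMSO cannot be told apart here.

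Acat2 averaged 13.35 ± 0.13 in the vehicle at 48 h against 12.78 ± 0.07 at 24 h (SD, n = 5), a difference of 0.57 ± 0.07 (1.48-fold, adjusted p = 1.03e-06). Fdps averaged 15.71 ± 0.20 at 48 h against 15.18 ± 0.15 at 24 h (0.53 ± 0.08, adjusted p = 7.39e-06). Dhcr7 averaged 13.96 ± 0.23 against 13.44 ± 0.09 (0.52 ± 0.08, adjusted p = 3.01e-05), and Msmo1 14.51 ± 0.17 against 14.02 ± 0.15 (0.49 ± 0.08, adjusted p = 3.48e-05). The arrays of the 2 times did not overlap for these 4 enzymes. How many of all tested genes had arrays without overlap, here or in the other comparisons, was not counted. Mvd, Pmvk, Fdft1, Sc5d, Cyp51, Ebp and Nsdhl rose by 0.21 to 0.35, although the Ebp call was lost under 11 of 20 other settings and the Cyp51 call under 9 of 20. The calls of Mvd, Sc5d and Nsdhl were lost under 1 each. The second probe sets of Cyp51 (0.17) and Nsdhl (0.06) did not pass, and 2 of the 3 tested Sc5d probe sets passed. Sqle (0.29 ± 0.11, adjusted p = 0.0628) and Lss (0.25 ± 0.11, adjusted p = 0.116) were positive without passing, and Idi1 was at 0.02 ± 0.08. Hsd17b7 was at -0.14 on its brightest probe set without passing, while its second probe set was higher, by 0.39, so its probe sets disagree.

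Abca1 averaged 11.48 ± 0.09 in the vehicle at 48 h against 11.88 ± 0.09 at 24 h (-0.40 ± 0.11, adjusted p = 0.00815), although its 3 other probe sets did not pass. Lcat averaged 12.31 ± 0.07 at 48 h against 12.68 ± 0.09 at 24 h (-0.38 ± 0.06, adjusted p = 4.5e-05). Tm7sf2 differed by -0.28 ± 0.09 (adjusted p = 0.0287), a call lost under 7 of 20 other settings. Insig2 was at -0.15 ± 0.10 (adjusted p = 0.378) on its brightest probe set, while its second fell by 0.20 ± 0.05 (adjusted p = 0.00787). The summed signal of the cholangiocyte markers was 8810 to 11706 at 25 mM and 10439 to 12645 at 100 mM after 48 h, against 11848 to 14309 in the vehicle at 48 h, and it was 8524 to 10569 in the vehicle at 24 h. That sum includes Epcam and Krt19, and also Krt7 and Spp1, which lay below the filter. Its 25 mM arrays at 48 h and its 24 h vehicle arrays lay wholly below the 48 h vehicle, and its 100 mM arrays overlapped that vehicle. The summed signal of the macrophage markers includes Cd68, Clec4f and Csf1r, and also Adgre1 and Cd163, which lay below the filter. It was 2225 to 2948 at 25 mM and 2046 to 2354 at 100 mM after 24 h, against 2499 to 3129 in the vehicle at 24 h. The 100 mM arrays thus lay wholly below that vehicle. After 48 h the macrophage sum was 2322 to 2574 at 25 mM and 1848 to 2712 at 100 mM, against 1892 to 2551 in the vehicle. For stellate cells the sums overlapped between each dose and its vehicle and between the vehicles, and so did those for endothelial cells. The part of these markers in the differences between the times and from the vehicle was not tested.

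**Figure D5:**
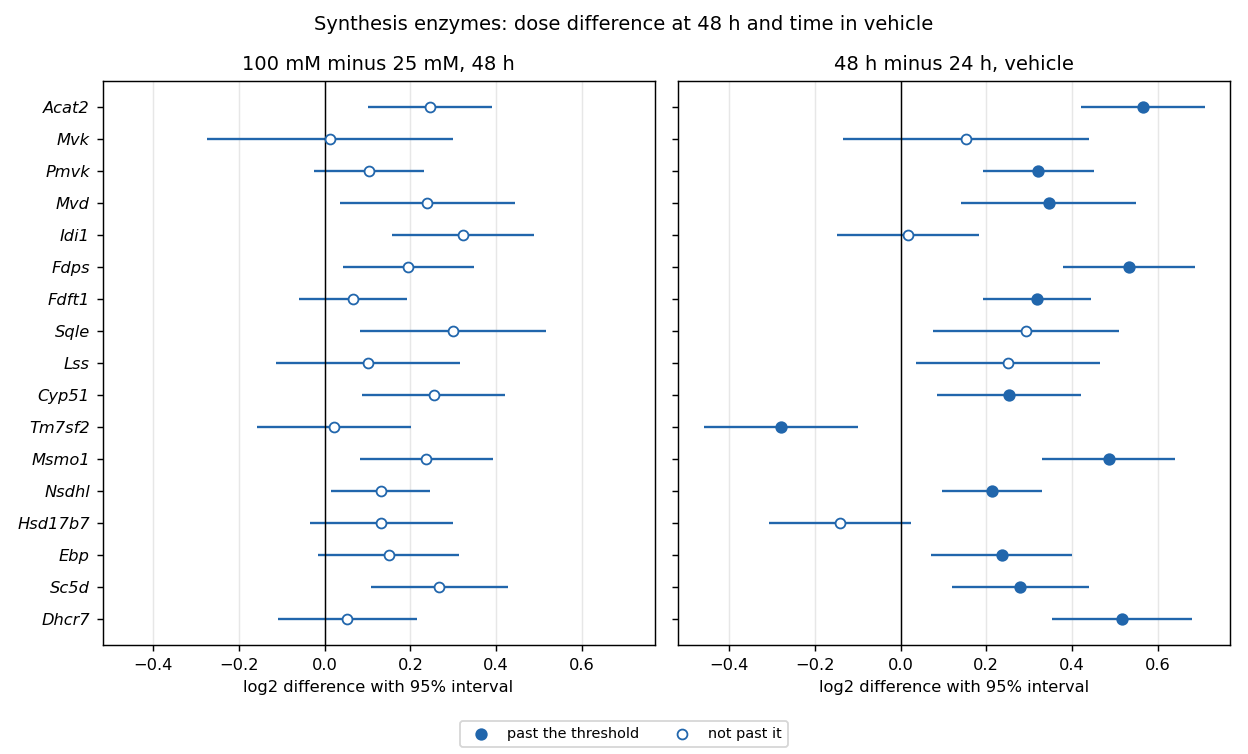
Log2 differences of the 17 synthesis enzymes with limma's 95% intervals, for 100 mM minus 25 mM at 48 h on the left and for 48 h minus 24 h in the vehicle on the right. All 17 enzymes are positive on the left with none past the threshold, while on the right 11 are higher and Tm7sf2 is lower past the threshold.

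Set beside both vehicles, Acat2 at 25 mM and 48 h averaged 12.80 ± 0.20, against 13.35 ± 0.13 in the vehicle at 48 h and 12.78 ± 0.07 in the vehicle at 24 h (SD, n = 5). Sqle averaged 12.86 ± 0.25 at 25 mM and 48 h, against 13.67 ± 0.26 in the vehicle at 48 h and 13.38 ± 0.13 in the vehicle at 24 h. Idi1 averaged 13.35 ± 0.19 at 25 mM and 48 h, against 13.83 ± 0.13 in the vehicle at 48 h and 13.81 ± 0.10 at 24 h. Every 25 mM array at 48 h lay below every vehicle array of both times for Sqle and Idi1, whereas for Acat2 they overlapped the 24 h vehicle. These comparisons with the 24 h vehicle were not tested.

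A second list of 34 genes of sterol and linked lipid handling was read from the same fit, and 25 of them were tested. After 24 h, 25 mM had 7 higher and 3 lower genes, and 100 mM had 6 higher and 3 lower, beside 7.87% higher and 7.84% lower of all genes at 25 mM and 7.54% and 7.02% at 100 mM. After 48 h, 25 mM had 6 higher and 6 lower genes, and 100 mM had 5 of each, beside 9.78% and 12.1% of all genes at 25 mM and 8.69% and 9.2% at 100 mM. In the dose comparisons and the differences between times limma called 0 of 25, and in the vehicle at 48 h against 24 h 4 were higher (Cyp27a1, Abcg1, Nr1h2 and Por, by 0.25 to 0.34) and 1, the hepatic lipase gene Lipc, was lower (-0.78 ± 0.06, adjusted p = 7.41e-11), beside 9.49% and 7.92% of all genes. Lower in all 4 comparisons with the vehicle were Cyp7a1, which sets the pace of bile acid synthesis, Cyp27a1, a mitochondrial sterol hydroxylase of the same route, and Acly, which supplies cytosolic acetyl-CoA. Cyp7a1 differed by -1.27 ± 0.17 (adjusted p = 1.86e-06) at 25 mM and -1.21 ± 0.17 (adjusted p = 5.01e-06) at 100 mM after 24 h. After 48 h it differed by -0.52 ± 0.17 (adjusted p = 0.034) and -0.76 ± 0.17 (adjusted p = 0.00231). Acly differed by -0.45 ± 0.10 to -0.73 ± 0.10 and Cyp27a1 by -0.32 ± 0.05 to -0.42 ± 0.05. Higher in all 4 were Acat1, the mitochondrial thiolase of ketone metabolism, by 0.91 ± 0.08 to 1.07 ± 0.08, and Lipa, the lysosomal acid lipase that frees cholesterol from its esters, by 0.70 ± 0.07 to 0.85 ± 0.07. The sterol exporter Abcg1 (0.49 ± 0.10 to 0.82 ± 0.10) and the remnant receptor Lrp1 (0.39 ± 0.12 to 0.51 ± 0.12) were also higher in all 4.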

How the data were processed

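Biotin-labelled cRNA was made from total RNA of 30 wells and read on 1-colour arrays, per the labels' protocols. The authors deposited 1 signal intensity for each probe set on each array, on a linear scale. The submitters' processing notes name MAS5 as the tool, without a version. Their 2% trimmed mean was 1499.98 to 1499.99 on every array, so arrays had been scaled to a common mean before deposit.

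From these, log2(signal + 16) was computed, which understates the change of dim genes. Of 31099 probe sets, 57 controls were dropped, and a floor at the 40th percentile of the mean log2 value (7.956) left 18625 probe sets of 10604 genes for testing. Symbols came from the platform annotation, updated through Entrez IDs with the GRCr8 gene table. A gene was its brightest tested probe set. limma 3.58.1 in R 4.3.3 fitted all 6 groups with a variance trend (24 residual degrees of freedom), and the script was tested on simulated data. With 5 arrays a group, their number limits the precision. Samples were grouped by agent, dose and time in the labels. The labels give no replicate numbers, so arrays were numbered in sample order.

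The members, lists, tests and alternatives were chosen with earlier results of these data known. Every member is accounted for. Per-array values are given for members called in at least 2 comparisons with the vehicle with a log2 difference of at least 0.5 in 1 of them, and for the 4 with the largest difference at each time. Other called sterol genes are named by size, up to 6 a comparison. Alternatives were other constants, no filter, median centring, quantile normalisation, no trend, array weights, a block for array order, only the compared groups, the median over probe sets, and leaving out each array.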

Additional observations from a re-analysis of the deposited data

Results flagged for a closer look

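In each group of 5 arrays, the highest or lowest array was compared with the others by Dixon's ratio for the 28 tested sterol genes. Of the 168 groups, 9 had an array that stood apart, and chance alone gives about 1 in 20. In DINP cultures, Mvk at 25 mM and 24 h was lowest on replicate 3, at 10.64 (log2 signal) against 10.95 to 11.07 on the others. Mvd at 25 mM and 48 h was highest on replicate 2, at 11.30 against 10.86 to 10.92. Mvd at 100 mM and 48 h was lowest on replicate 5, at 11.11 against 11.21 to 11.24. Sc5d at 100 mM and 48 h was lowest on replicate 3, at 13.58 against 13.95 to 14.06. Lcat at 25 mM and 24 h was lowest on replicate 5, at 12.33 against 12.60 to 12.68. In the vehicle at 24 h, replicate 5 was highest for Sc5d, at 13.49 against 13.31 to 13.33, and for Lcat, at 12.83 against 12.62 to 12.67. In the vehicle at 48 h, Dhcr7 was highest on replicate 1, at 14.35 against 13.78 to 13.94, and Abcg5 was lowest on replicate 4, at 8.48 against 8.91 to 9.08. By the same ratio over all tested probe sets, replicate 1 of the 48 h vehicle stood apart on 2.63% of them, and the other arrays on 0.86% to 1.82%. Leaving that array out gave 8 called members, 2 of them higher, for 25 mM at 48 h. The share of all genes called without it is not given here.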

How the results depend on the processing

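Over all comparisons 49 member calls were made, of which 32 were kept under each of the 20 or more other settings run and 17 were lost under at least 1; of 203 uncalled results 18 passed under at least 1, and 0 reversed. Calls of Insig2, Abcg5, Sqle, Abca1 and Acat2 were among those kept. With the compared groups alone, 7 members passed at 25 mM and 48 h in place of 12. The share of all genes fell there too, from 9.78% to 7.29% higher and from 12.1% to 8.24% lower. Leaving out 1 array gave 6 to 8 called members at 25 mM and 4 to 6 at 100 mM after 24 h, 8 to 13 and 7 to 9 after 48 h, and 11 to 16 in the vehicle between times. At 100 mM and 24 h, 4 passed without replicate 3 or without replicate 5 of that group. For both dose comparisons and the time difference of 100 mM the range was 0 to 0, and for the time difference of 25 mM it was 0 to 1. The shares of all genes with 1 array left out are not given here. The array numbers in the titles run in rounds of 6, 1 array of each group. Over all tested probe sets, deviations from group means correlated by -0.061 to 0.099 within a round (median 0.004). That does not decide whether a round pairs the samples for the sterol genes. Replicate 4 at 24 h was the lowest of its group for 7, 9 and 9 of 17 enzymes in vehicle, 25 mM and 100 mM. Replicate 3 at 48 h was the lowest for 11, 1 and 11. Whether the enzymes share an effect of the round was not tested. With the round as a replicate block, 9, 7, 13 and 8 members passed against the vehicle (25 and 100 mM at 24 h, then at 48 h). Of all genes, 8.01%, 7.62%, 9.86% and 8.81% were then higher and 8.07%, 7.26%, 12.4% and 9.4% lower. With that block 15 members passed in the vehicle between times, beside 9.6% of all genes higher and 7.997% lower. In the time difference of 25 mM 1 passed, Acat2, beside 0.217% and 0.0849%. In the main fit, without that block, 50.1%, 51.8%, 44.6% and 48.6% of all called genes were higher in the comparisons with the vehicle. With median centring these shares were 70.4%, 75.4%, 58.7% and 73.0%. The files hold no detection calls, so signal over background could not be read per array.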
